A study of Homo sapiens with 12 samples.

Results

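The genes examined here encode parts of the red cell membrane and of the spectrin skeleton beneath it: SPTB, ANK1, EPB41, EPB42, SLC4A1, GYPB, GYPC and RHAG. These 8 genes were taken by symbol from a count table of 54628 genes. The rule used no measured value, but the genes were chosen with earlier results of these data known. All 8 passed the filter on low counts, which kept 15492 genes for testing. They were followed in HUDEP-2 cells, an immortalised human line of erythroid precursors that carries a doxycycline-inducible transgene and is grown in SCF, EPO, dexamethasone and doxycycline.

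The study asked how activation of the receptor Kit by its ligand, stem cell factor (SCF), alters transcription in these precursors, and how much of that response needs the transcription factor EGR1. RNA-seq covered 4 groups with 3 libraries each. Cells of every group carried dCas9-KRAB, a catalytically dead Cas9 fused to a repressor domain and expressed from the EF1a promoter of a lentiviral vector, and had been sorted for the GFP of that vector; whether clones were derived is not given in the sources used here. In 2 groups the guide RNA was a scrambled control (sgControl), and in the other 2 it directed the repressor to an element upstream of EGR1 (sgEGR1). With either guide, cells were held for 5 h without growth factors and then received PBS or 50 ng/mL SCF for 1 h, so that the PBS groups share the starvation with the SCF groups. The methods call the samples of a group biological replicates, and p-values below measure only the spread between those samples.

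The red cell owes its shape and elasticity to a mesh of spectrin, of which SPTB encodes the beta chain, and this mesh is tied to the lipid bilayer at 2 kinds of site. At the ankyrin sites, ANK1 links beta-spectrin to band 3, the chloride-bicarbonate exchanger encoded by SLC4A1, together with protein 4.2 (EPB42), the Rh-associated glycoprotein (RHAG) and glycophorin B (GYPB). At the junctional sites, protein 4.1 (EPB41) joins the spectrin tails and actin to glycophorin C (GYPC). Inherited defects of ANK1, SPTB, SLC4A1 and EPB42 cause hereditary spherocytosis, and defects of EPB41 cause hereditary elliptocytosis. These genes are switched on as erythroid cells mature, largely by GATA1 and KLF1.

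Promoter windows are shown first because GATA1 and the factors of the SCF response act on DNA. Of the 8 genes, 6 had an entry in the RefSeq promoter table used here (GRCh38.p14). For each gene the 250 bases before a single annotated start were searched on both strands, and other starts were not searched. The words sought were AGATAA or AGATAG, the usual words of a GATA site, and their forms that begin with a T (TGATAA or else TGATAG). A match was found in 6 of the 6 windows (SPTB, EPB41, EPB42, GYPB, GYPC and RHAG), against 22.9% of 27305 genes in the table. The words CCNCACCC, read by KLF1, were present in 2 of 6 (SPTB and RHAG) against 15.9% of genes. GCGNGGGCG, an EGR site, was present in 1 of 6 (SPTB) against 8.25%, and TGANTCA, an AP-1 site, in 0 of 6 against 6.6%. In the SPTB window the EGR match lies at bases -108 to -100 and does not overlap the GATA matches. These matches describe letters in a window and say nothing on binding. The 4 windows below, written 5′ to 3′ with GATA matches on either strand in capitals, are those of 2 genes of the ankyrin complex that moved in opposite directions in replicate 1 (RHAG and EPB42), of a glycophorin with near-identical relatives (GYPB) and of the gene with an EGR match (SPTB).
RHAG, chr6:49636840-49637089, minus strand: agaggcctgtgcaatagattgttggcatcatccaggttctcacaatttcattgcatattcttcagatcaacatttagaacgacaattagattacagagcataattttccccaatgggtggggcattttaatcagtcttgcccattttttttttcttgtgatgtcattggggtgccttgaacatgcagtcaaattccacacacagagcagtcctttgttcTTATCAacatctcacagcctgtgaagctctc
EPB42, chr15:43221019-43221268, minus strand: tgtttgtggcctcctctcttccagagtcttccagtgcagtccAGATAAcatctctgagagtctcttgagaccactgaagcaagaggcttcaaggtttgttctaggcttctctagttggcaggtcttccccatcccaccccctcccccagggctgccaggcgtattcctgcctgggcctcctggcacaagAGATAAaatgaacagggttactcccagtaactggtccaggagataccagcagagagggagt
GYPB, chr4:144019381-144019630, minus strand: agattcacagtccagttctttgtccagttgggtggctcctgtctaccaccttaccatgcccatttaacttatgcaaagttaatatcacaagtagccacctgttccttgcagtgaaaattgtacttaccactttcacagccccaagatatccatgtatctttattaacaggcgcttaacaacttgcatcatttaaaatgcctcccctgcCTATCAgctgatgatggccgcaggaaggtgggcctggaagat
SPTB, chr14:64879908-64880157, minus strand: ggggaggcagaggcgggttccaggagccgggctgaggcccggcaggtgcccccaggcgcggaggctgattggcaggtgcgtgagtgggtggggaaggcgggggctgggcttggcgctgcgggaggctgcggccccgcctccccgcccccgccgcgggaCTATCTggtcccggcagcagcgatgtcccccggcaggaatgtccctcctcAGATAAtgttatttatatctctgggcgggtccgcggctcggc
The nearest GATA match ends 26 bases before the start in RHAG, 56 in EPB42, and 37 in both GYPB and SPTB.

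Levels are given as CPM, counts per megacount of a library total scaled by TMM factors, and library totals ran from 23.5 to 32.04 megacounts. Each member had between 1726 and 62972 counts in every library, so counting error is small beside the spread between libraries. The sgEGR1 label was checked on EGR1 itself, which stood at 10.9, 5.99 and 7.45 CPM in sgControl PBS, 208, 239 and 171 CPM in sgControl SCF, and 2.04, 1.12 and 0.977 CPM in sgEGR1 PBS. In the sgEGR1 SCF group it stood at 40.4, 57.4 and 204 CPM. By its EGR1 level the library labelled sgEGR1 SCF replicate 3 goes against its label, since it falls among those of sgControl SCF. Some results are given with and without it. Where no value without it is given, results for sgEGR1 SCF cells and averages include it under its label. FOSL1 and DUSP6, early targets of the pathway, were higher in every SCF library (12.01 to 23.9 CPM) than in every PBS library (1.98 to 3.41 CPM). Erythroid markers defined the cells: all 16 were tested, with a summed level of 27177 to 32387 CPM, and 15 of 16 had over 3 counts in every library; the exception, HBG1, was at 0 in sgControl PBS replicate 1. Of 20 markers of other lineages 4 were tested; the summed level was 13.0 to 35.9 CPM for 6 megakaryocyte genes (mainly ITGA2B, with 3 of 6 at 0), 7.73 to 15.8 CPM for 6 myeloid genes (mainly SPI1), at most 0.440 CPM for 4 lymphoid genes, and 138 to 172 CPM for 4 epithelial or fibroblast genes (nearly all EPCAM). In every group replicate 1 differed from the other replicates across many genes, and values within replicates 2 and 3 or with a term for replicate 1 are therefore given beside the results.

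Together the members supplied 0.639% to 0.738% of the scaled total of a library. Levels of different genes were compared per kb of annotated exon, with the union of all transcripts as length. On that scale the order, as means over 12 libraries, was SLC4A1 (250.1 CPM per kb), RHAG (244.5), ANK1 (183), EPB42 (131), SPTB (110.4), GYPC (109.9), GYPB (38.7) and EPB41 (21.7). SLC4A1 and RHAG overlapped across libraries (202 to 283 and 216 to 274 CPM per kb), as did EPB42, SPTB and GYPC (113 to 152, 103 to 119 and 103 to 119.6). ANK1 lay between these sets at 172 to 199.8, and GYPB (30.7 to 44.8) and EPB41 (20.2 to 23.9) lay below them without overlap. EPB41 is annotated with 40 transcripts whose exons add up to 19993 bases, against 5125 bases for SLC4A1. Among all tested genes with a length, the members ranked between 95 (SLC4A1) and 1798 (EPB41) per kb.

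Counts per gene are uncertain for some of them. GYPB shares long stretches of near-identical sequence with related glycophorin genes such as GYPE, so its reads can be split or misplaced among them. Exons of SPTB overlap MIR7855 on the same strand and PLEKHG3 on the opposite strand. EPB42 overlaps an unnamed gene on its own strand, and ANK1, EPB41 and GYPB overlap genes on the opposite strand. SLC4A1, GYPC and RHAG overlap no other exon.

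**Figure D1:**
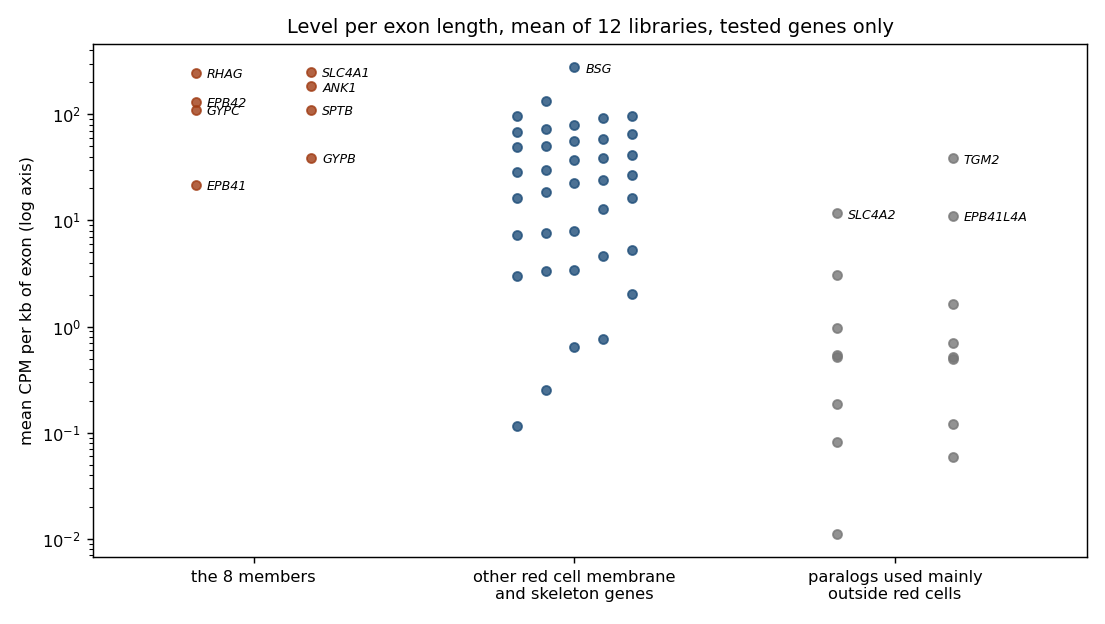
Mean level over 12 libraries in CPM per kb of exon (log axis) for the 8 members, 38 other red cell membrane and skeleton genes, and the 16 tested paralogs used mainly outside red cells. Points are genes; the members lie between 21.7 and 250.1 CPM per kb, and the highest paralog, TGM2, at 38.4.

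Other genes of the membrane set the members in context. BSG, which encodes the surface protein basigin, was above every member at 277 CPM per kb. Of 23 paralogs that serve mainly outside red cells, 16 passed the filter and 7 did not (ANK2, SLC4A3, SLC4A4, SLC4A10, RHBG, RHCG and TGM5). Levels of members lay above those of the relatives named here: SLC4A1 stood at 250.1 CPM per kb against 11.7 for SLC4A2, ANK1 at 183 against 0.0111 for ANK3, and EPB41 at 21.7 against 11.1 for EPB41L4A. EPB42, a transglutaminase relative without enzyme activity, stood at 131 against 38.4 for TGM2.

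SLC4A1 (chr17:44248390-44268141, minus strand of GRCh38), which encodes band 3, was the member that changed with SCF. It stood at 1246, 1379 and 1432 CPM in replicates 1, 2 and 3 of sgControl PBS and at 1086, 1211 and 1224 CPM in sgControl SCF. With sgEGR1 it stood at 1446, 1428 and 1448 CPM after PBS and at 1251, 1195 and 1034 CPM after SCF. The SCF libraries lay below all PBS libraries of the same guide in both cases, which 3.47% of the tested genes also showed. Averaged over both guides, SLC4A1 fell by 0.26 on the log2 scale (SE 0.05, 95% interval -0.37 to -0.14, edgeR adjusted p 0.00856), a change of -16.4%. It was the only 1 of the 8 members called in this comparison, in which 9.03% of all genes were called and 3.45% were called lower. In bulk samples, fewer cells that express a gene and less RNA per cell cannot be told apart.

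The fitted value of SLC4A1 was below 0 with either guide. In sgEGR1 cells the log2 fold change was -0.31 (SE 0.07, edgeR adjusted p 0.0471). SLC4A1 was the only member called there, against 2.59% of all genes called and 0.788% called lower. An unadjusted p under 0.05 was found for 4 of 8 members, against 15% of all genes. DESeq2 called 2 members, SLC4A1 and ANK1, and 773 genes in all. In sgControl cells the log2 fold change of SLC4A1 was -0.20 (SE 0.07, edgeR adjusted p 0.206). There edgeR called 0 of 8 members against 2.89% of all genes. Only 1 member (SLC4A1) had an unadjusted p under 0.05, against 14.3% of all genes. DESeq2 called 0 members and 759 genes in all. The difference between these responses was -0.11 (SE 0.10, 95% interval -0.34 to 0.12, edgeR adjusted p 1.00), so a difference between guides was not shown. Dropping sgEGR1 SCF replicate 3, the library that goes against its label, gave -0.03 (SE 0.09). The averaged call held in each of the 12 fits that left out 1 library, and was -0.29 (SE 0.04, adjusted p 0.00259) in replicates 2 and 3 alone. The library labelled sgEGR1 SCF replicate 3 had the lowest SLC4A1 level of all; with it left out and a term for replicate 1, the value was -0.21 (SE 0.04, adjusted p 0.00247).

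The call within sgEGR1 cells alone held in 9 of 20 alternatives and its log2 fold change lay between -0.37 and -0.22 in all 20. It held with DESeq2 (adjusted p 0.00158), with a term for replicate 1 (0.0131) and in replicates 2 and 3 alone (0.0089). With 1 library left out it was lost in 9 of 12 fits, of which 8 gave values of -0.31 to -0.33. The adjusted p was 0.0688 without sgControl PBS replicate 2, 0.0561 without sgControl PBS replicate 3, 0.0761 without sgControl SCF replicate 2 and 0.0582 without sgControl SCF replicate 3, which enter through the shared estimate of spread. It was 0.0997, 0.143 and 0.143 without sgEGR1 PBS replicate 1, 2 or 3, 0.117 without sgEGR1 SCF replicate 2 and 0.170 without sgEGR1 SCF replicate 3, where the log2 fold change was -0.23. It was also 0.0616 with no filter on low counts and 0.0674 with only the groups compared.

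**Figure D2:**
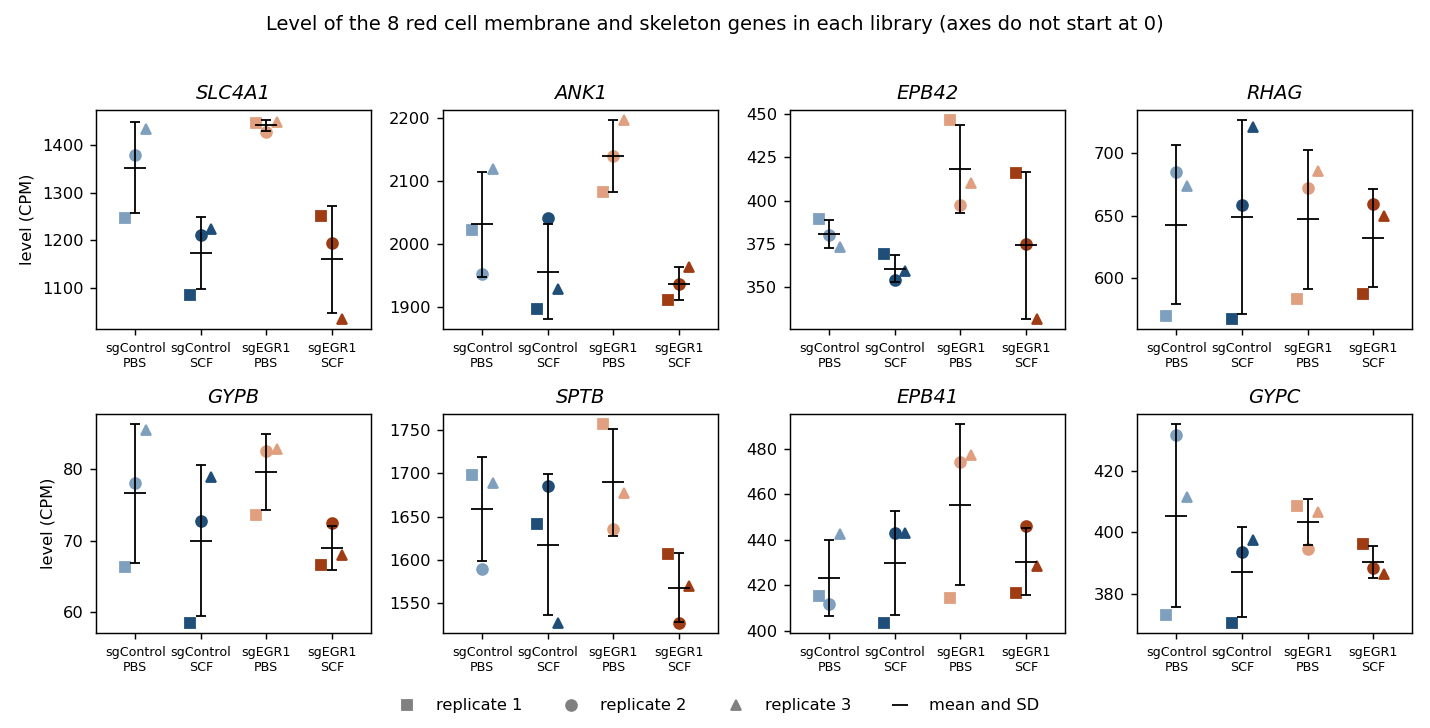
Level in CPM of each member in each library, by group; squares, circles and triangles are replicates 1, 2 and 3, and the black marks are the mean and SD of 3 libraries. The axes do not start at 0. SLC4A1 is lower in SCF than in PBS libraries with either guide, and RHAG is lowest in replicate 1 of every group (567 to 587 CPM against 650.0 to 721).

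ANK1 (chr8:41653220-41896741, minus strand), the adaptor between band 3 and spectrin, did not pass the threshold in either guide or on average. It stood at 2022, 1952 and 2119 CPM in sgControl PBS and at 1897, 2041 and 1928 CPM in sgControl SCF, and these ranges overlapped. With sgEGR1 the PBS libraries stood at 2082, 2141 and 2197 CPM, all above the SCF libraries at 1910.2, 1936 and 1963 CPM. The averaged log2 fold change was -0.10 (SE 0.03, 95% interval -0.17 to -0.03) and the edgeR adjusted p 0.0725. DESeq2 gave the same size with an adjusted p of 0.00837, and a term for replicate 1 gave 0.0159. ANK1 was called in 4 of 19 alternatives and in 0 of the 12 edgeR fits that left out 1 library, with an adjusted p of up to 0.205.

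EPB42 (chr15:43197227-43221018, minus strand), whose product binds band 3 and ankyrin, stood at 389, 380.2 and 373 CPM in sgControl PBS and at 369, 354 and 359 CPM in sgControl SCF, without overlap. In sgEGR1 cells it stood at 447, 398 and 410.4 CPM after PBS and at 416, 375 and 331 CPM after SCF, where the groups overlapped through replicate 1. The averaged log2 fold change was -0.12 (SE 0.05, 95% interval -0.23 to -0.01, edgeR adjusted p 0.176). The value passed the threshold with a term for replicate 1 (adjusted p 0.0281) and without sgEGR1 SCF replicate 1 (log2 fold change -0.16, adjusted p 0.0461). The library labelled sgEGR1 SCF replicate 3 had the lowest EPB42 level, and leaving it out gave -0.08 (SE 0.04, adjusted p 0.325), or -0.09 (SE 0.03, adjusted p 0.0487) together with a term for replicate 1.

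RHAG (chr6:49605175-49636839, minus strand), an ammonia and gas channel of the Rh complex, showed the smallest averaged difference of the 8. It stood at 570.1, 685 and 674 CPM in sgControl PBS, 567, 659 and 721 CPM in sgControl SCF, 584, 672 and 685 CPM in sgEGR1 PBS and 587, 659 and 650.0 CPM in sgEGR1 SCF. The averaged log2 fold change was -0.01 with a 95% interval of -0.16 to 0.14 (edgeR adjusted p 0.961). Replicate 1 gave the lowest value in every group.

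GYPB (chr4:143996104-144019380, minus strand), the glycophorin that carries the Ss antigens, was the least abundant member in CPM. It stood at 66.3, 78.1 and 85.4 CPM in sgControl PBS and 58.5, 72.7 and 78.9 CPM in sgControl SCF, which overlapped. With sgEGR1 it stood at 73.5, 82.5 and 82.7 CPM after PBS and at 66.6, 72.4 and 68.0 CPM after SCF, which did not. The averaged log2 fold change was -0.17 (SE 0.08, 95% interval -0.34 to 0.00, edgeR adjusted p 0.221), and with a term for replicate 1 it was -0.17 (SE 0.04, adjusted p 0.0170). In replicates 2 and 3 alone it was -0.17 (SE 0.04, adjusted p 0.0304), and dropping the library labelled sgEGR1 SCF replicate 3 with a term for replicate 1 gave -0.14 (SE 0.04, adjusted p 0.0529).

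SPTB, EPB41 and GYPC had averaged values closer to 0 than SLC4A1, ANK1, EPB42 and GYPB, and so did RHAG of the ankyrin sites. SPTB (chr14:64746283-64879907, minus strand), beta-spectrin, stood at 1697, 1589 and 1688 CPM in sgControl PBS and 1641, 1685 and 1527 CPM in sgControl SCF, which overlapped. In sgEGR1 cells it stood at 1756, 1635 and 1677 CPM after PBS and at 1607, 1527 and 1571 CPM after SCF, which did not. Its averaged log2 fold change was -0.07 (SE 0.03, edgeR adjusted p 0.245).

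EPB41 (chr1:28887091-29120046, plus strand), protein 4.1, stood at 415, 412 and 443 CPM in sgControl PBS and 403, 443 and 443 CPM in sgControl SCF. It stood at 415, 474 and 478 CPM in sgEGR1 PBS and 417, 446 and 428 CPM in sgEGR1 SCF. The groups overlapped with either guide, and the averaged log2 fold change was -0.03 (SE 0.04, edgeR adjusted p 0.757).

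GYPC (chr2:126656133-126696667, plus strand), the junctional glycophorin that carries the Gerbich antigens, stood at 373, 432 and 412 CPM in sgControl PBS and 370.2, 394 and 398 CPM in sgControl SCF. It stood at 409, 395 and 407 CPM in sgEGR1 PBS and 396, 388 and 386 CPM in sgEGR1 SCF. These groups also overlapped, and the averaged log2 fold change was -0.06 (SE 0.04, edgeR adjusted p 0.415). GYPC varied least of the 8 over all libraries, with a coefficient of variation of 4.27%, and SLC4A1 varied most, with 11.2%.

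**Figure D3:**
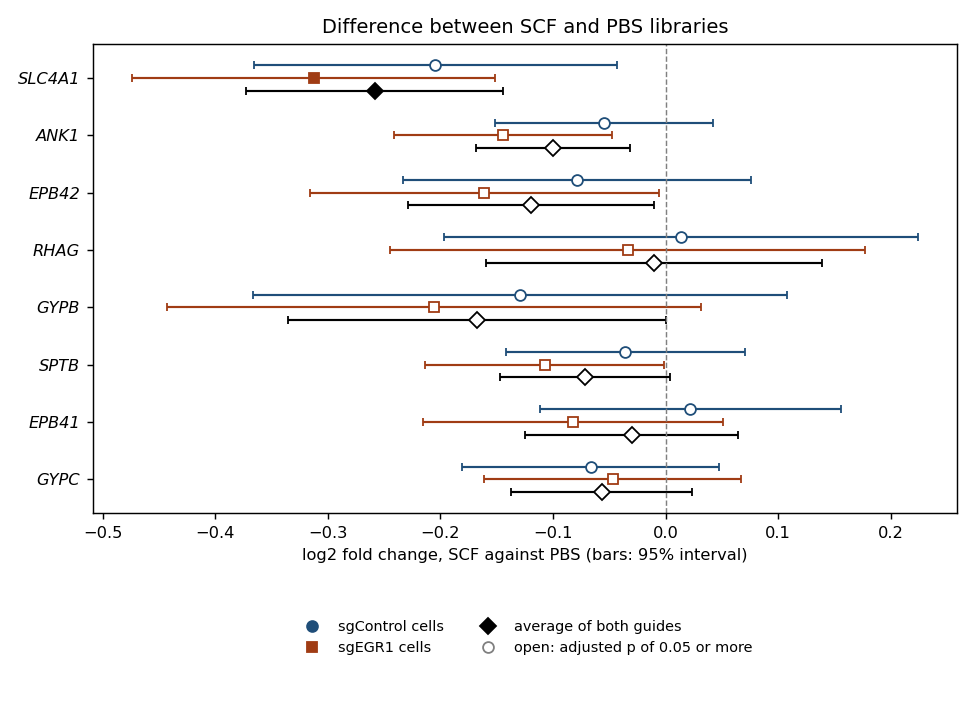
Log2 fold change of each member between SCF and PBS libraries in sgControl cells, in sgEGR1 cells and averaged, with 95% intervals from edgeR; filled points have an adjusted p under 0.05. Of the averaged values, SLC4A1 at -0.26 is the one filled point, and RHAG at -0.01 is closest to 0.

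Counted over the 8 members, SCF libraries lay wholly below PBS libraries for 2 in sgControl cells (SLC4A1 and EPB42; 9.24% of all genes) and for 4 in sgEGR1 cells (SLC4A1, ANK1, SPTB and GYPB; 10.0% of all genes). The fitted log2 fold change was below 0 with both guides for 6 of 8 members, against 35.9% of all genes, and the median averaged value was -0.09 against 0.00 over all genes tested. EPB41 and RHAG were the exceptions, with 0.02 and 0.01 in sgControl cells. The sum over the members took 0.678% to 0.723% of the scaled total in sgControl PBS and 0.639% to 0.686% in sgControl SCF, which overlapped. In sgEGR1 cells it took 0.721% to 0.738% after PBS and 0.643% to 0.665% after SCF, which did not. The value of 0.643% was that of the library labelled sgEGR1 SCF replicate 3. The level of SLC4A1 divided by the mean of the other 7 was 1.576 to 1.75 in sgControl PBS against 1.43 to 1.571 in sgControl SCF, which nearly met. It was 1.71 to 1.76 in sgEGR1 PBS against 1.34 to 1.62 in sgEGR1 SCF. The ratio of 1.34 was that of the library labelled sgEGR1 SCF replicate 3, and replicates 1 and 2 stood at 1.62 and 1.55. These ratios reuse the SLC4A1 values given above and add no separate support, and the share of all genes with such a ratio was not computed.

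The 38 other membrane and skeleton genes were all tested, and their median averaged log2 fold change was -0.05. In the averaged comparison 3 of 38 were called, against 9.03% of all genes. Of these 3, 1 was higher and 2 were lower, against 5.58% and 3.45% of all genes. TMCC2, a coiled-coil transmembrane protein of erythroid cells, rose by 0.52 on the log2 scale (SE 0.11, edgeR adjusted p 0.0103). XK, the carrier of the Kx antigen, was lower with a log2 fold change of -0.15 (SE 0.04, adjusted p 0.0311), and RHD, the D antigen, with -0.44 (SE 0.12, adjusted p 0.0411). RHD stood at 4.38 to 10.8 CPM, and its near-identical relative RHCE can take part of its reads. TMCC2 stood at 11.4 to 16.4 CPM in sgControl PBS against 18.1 to 22.8 in sgControl SCF, and at 13.2 to 18.1 against 19.1 to 23.9 with sgEGR1, without overlap. TMCC2 was also higher in replicate 1 than in replicates 2 and 3 (log2 fold change 0.34, adjusted p 0.000509).

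With no filter on low counts TMCC2 was the 1 call left of these 3. XK kept its call without sgControl PBS replicate 1, sgControl SCF replicate 2, sgEGR1 PBS replicate 1 or sgEGR1 SCF replicate 1 and lost it without any other library (log2 fold change -0.15 to -0.12, adjusted p 0.0585 to 0.0960). RHD kept its call without sgControl PBS replicate 1, sgControl SCF replicate 2 or sgEGR1 SCF replicate 3 and lost it without any other library (log2 fold change -0.45 to -0.38, adjusted p 0.0573 to 0.104).

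Within a single guide, 0 of the 38 were called by edgeR. In sgControl cells 5 of 38 had an unadjusted p under 0.05, against 14.3% of all genes, and DESeq2 called 2; the 3 with the smallest p were TMCC2 (log2 fold change 0.54, adjusted p 0.0911), RHCE (-0.62, 0.101) and RHD (-0.52, 0.149). In sgEGR1 cells 4 of 38 did, against 15% of all genes, and DESeq2 called 2; among those with the smallest p were TMCC2 (0.49, 0.126) and XK (-0.16, 0.168). Of the other membrane genes, 25 of 38 had a fitted value below 0 with both guides, against 35.9% of all genes. SCF libraries lay wholly below PBS libraries with both guides for 0 of 38, against 3.47% of all genes. Of the 16 tested paralogs, 0 were called by edgeR in any of the SCF comparisons with all libraries, 0 had an unadjusted p under 0.05, and DESeq2 called 0 of the 13 to which it gave an adjusted p. In replicates 2 and 3 alone, or with sgEGR1 SCF replicate 3 left out and a term for replicate 1, edgeR called at most 1 of the 16.

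The guide comparison asks whether the sgEGR1 guide changed these genes. For the members, 0 of 8 were called by edgeR after PBS, after SCF or on average, 0 had an unadjusted p under 0.05, and DESeq2 called 0. The share of all genes called by edgeR was also 0% in each, while 715, 361 and 805 genes had an unadjusted p under 0.05 and DESeq2 called 20, 5 and 28. EGR1, the targeted gene, was thus not called by edgeR either, so the lack of a call says little on the members. EGR1 was called in 2 of 20, 2 of 20 and 3 of 19 alternatives. Its log2 fold change over these was -2.96 to -2.31 after PBS, -2.08 to -0.66 after SCF and -2.34 to -1.62 on average. Once the library labelled sgEGR1 SCF replicate 3 was dropped, edgeR called 1, 2 and 22 genes, and with a term for replicate 1 besides it called 51, 38 and 233. A fit blocked on the replicate number called 2, 2 and 49 genes in edgeR, again with 0 members among them. The largest averaged value was that of EPB42, at 0.09 (SE 0.05, 95% interval -0.02 to 0.20, edgeR adjusted p 0.969); dropping the library labelled sgEGR1 SCF replicate 3 with a term for replicate 1 gave 0.12 (SE 0.03, adjusted p 0.0466).

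Intervals for the guide difference are those of the fit of all libraries, which counts the library labelled sgEGR1 SCF replicate 3 as sgEGR1. In that fit the averaged 95% interval reached at most 15.1% higher (EPB42) and 10.7% lower (RHAG) across the 8 members, and for SLC4A1 it ran from -5.19% to 11.04%. Over 19 alternatives, some without that library, the averaged log2 fold change was 0.04 to 0.13 for EPB42, -0.05 to 0.08 for SLC4A1 and -0.06 to 0.03 for RHAG. For the response difference between guides, 0 of 8 members were called by edgeR, 0 had an unadjusted p under 0.05 and DESeq2 called 0, against 0% of all genes, of which 306 had an unadjusted p under 0.05 and 4 were called by DESeq2. The fitted difference was below 0 for 7 of 8 members, with a median of -0.08 on the log2 scale; with sgEGR1 SCF replicate 3 left out it was also below 0 for 7 of 8, with a median of -0.07, or -0.02 with a term for replicate 1. In the fit of all libraries 0 is inside all 8 intervals, and the widest interval was that of GYPB, from -0.41 to 0.26.

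Among the 38 other membrane genes edgeR called 0 in each guide comparison, and DESeq2 called 0. After PBS 5 had an unadjusted p under 0.05, led by RHD (log2 fold change -0.56), RHCE (-0.49) and TMOD1 (0.09), and after SCF 1 did, RHD (-0.40), with adjusted p of 0.999 after PBS and 1.00 after SCF. On average 4 did, led by RHD (-0.48, SE 0.12, adjusted p 0.669), MPP1, a scaffold of the junctional complex (0.16, SE 0.05, adjusted p 0.819), and TMOD1, which caps the actin filaments of the skeleton (0.08, SE 0.03, adjusted p 0.850). With the replicate number as a block MPP1 passed the threshold at 0.16 (SE 0.02, adjusted p 0.0175). With a term for replicate 1 both MPP1 (0.16, SE 0.02, edgeR adjusted p 0.0115) and RHD (-0.48, SE 0.09, adjusted p 0.0485) passed it. With that term and sgEGR1 SCF replicate 3 left out, 5 of 38 passed, among 233 genes called in all. They were MPP1 (0.17, edgeR adjusted p 0.00336), RHD (-0.53, 0.0142), AQP1 (-0.22, 0.0244), STOM (0.13, 0.0331) and CD44 (0.11, 0.0487). The last pair and AQP1 were named after their values were seen. With that library left out but no such term, the adjusted p of these 5 was 0.229 to 0.833. Of the 16 tested paralogs edgeR and DESeq2 called 0 with all libraries, and 0 had an unadjusted p under 0.05; edgeR called 1 with the term and without that library.

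**Figure D4:**
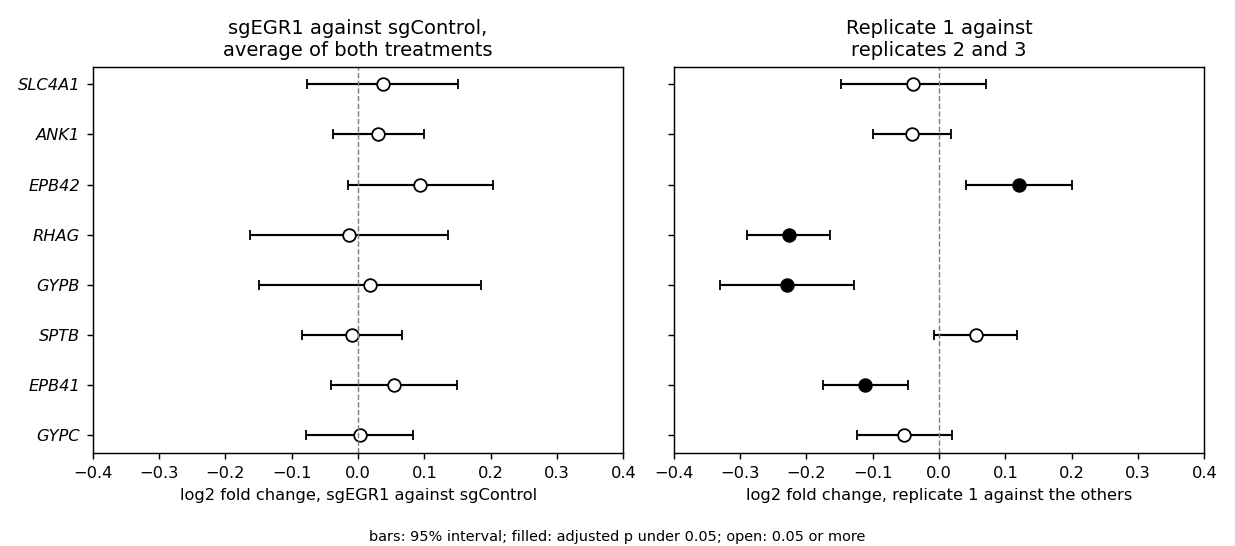
Left, log2 fold change of each member between sgEGR1 and sgControl libraries, averaged over both treatments; right, between replicate 1 and replicates 2 and 3. Bars are 95% intervals and filled points have an edgeR adjusted p under 0.05; on the left no point is filled, and on the right RHAG, GYPB, EPB41 and EPB42 are.

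The split between replicate 1 and the other replicates took in RHAG, GYPB, EPB41 and EPB42. This split was seen in the data, and the labels give only replicate numbers, so the values describe how the members sit in it. In a model with a term for replicate 1, 4 of 8 members were called, 3 lower and 1 higher, against 26.6% of all genes, of which 13.4% were called lower and 13.1% higher. RHAG fell by 0.23 on the log2 scale (SE 0.03, edgeR adjusted p 9.03e-05), from 650.0 to 721 CPM in replicates 2 and 3 to 567 to 587 CPM in replicate 1. It was the 1 member whose replicate 1 libraries lay below all others, which 6.24% of genes showed. GYPB was lower with -0.23 (SE 0.05, adjusted p 0.00289) and EPB41 with -0.11 (SE 0.03, adjusted p 0.0146). EPB42 was higher with 0.12 (SE 0.04, adjusted p 0.0280). SLC4A1 did not pass the threshold (-0.04, SE 0.05, adjusted p 0.631), and nor did ANK1 (-0.04), GYPC (-0.05) or SPTB (0.06).

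Leaving out sgEGR1 PBS replicate 1 reduced these calls to 2, RHAG and GYPB (EPB41 adjusted p 0.0773, EPB42 0.102). EPB41 also lost its call without sgControl SCF replicate 1 (0.0641), and EPB42 without sgEGR1 PBS replicate 2 (0.0633) or sgEGR1 SCF replicate 1 (0.165).

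Of the other membrane genes, 19 of 38 were called in this split, 15 lower and 4 higher in replicate 1. Over all genes 26.6% were called, 13.4% lower and 13.1% higher. Lower were AQP1, the water channel (log2 fold change -0.48, SE 0.04, edgeR adjusted p 5.52e-06), ICAM4, an adhesion protein of the Rh complex (-0.32, SE 0.03, 1.39e-05), TPM1, which lines the short actin filaments (-0.23, SE 0.03, 9.34e-05), and CD55, a complement inhibitor (-0.21, SE 0.03, 0.000367). Higher were ACHE, the surface acetylcholinesterase (0.27, SE 0.04, 0.000131), and MPP1 (0.17, SE 0.02, 0.000144). Of the 16 tested paralogs, 9 were called, 6 of them higher, beside the same shares of all genes. TGM2 (-0.65) and EPB41L2 (-0.78) were lower, and EPB41L3 (1.62), EPB41L4A (0.41) and SLC4A2 (0.26) were higher, with adjusted p of at most 0.000217 for these 5. Markers of the cells moved in the same split: CD36, AHSP and HBA1 were lower in replicate 1 (log2 fold change -0.38, -0.22 and -0.25) and ALAS2 higher (0.13), and of other lineages ITGA2B and EPCAM were lower (-0.93 and -0.20) and SPI1 higher (0.41). Their part in the members' values was not tested.

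Across the 8 libraries of replicates 2 and 3, which form 1 cluster, the members followed each other in part. Of 28 pairs 25 had a positive Pearson correlation of log2 CPM, with a median of 0.472 and a range from -0.355 (EPB41 and GYPC) to 0.931 (SLC4A1 and GYPB). SLC4A1 and EPB42, whose products bind each other, reached 0.881, SPTB and ANK1 0.845, and RHAG with ANK1 -0.0671. When the library labelled sgEGR1 SCF replicate 3 was dropped, 23 of 28 pairs were positive, with a median of 0.357, and SLC4A1 and GYPB stood at 0.875. The mean of the members' standardised log2 CPM was highest in sgEGR1 PBS replicate 3 (1.00) and lowest in the library labelled sgEGR1 SCF replicate 3 (-1.18), and all 4 PBS libraries (0.0944 to 1.00) lay above all 4 SCF libraries (-1.18 to -0.163). Among 9854 other genes with a mean of at least 5 CPM, the 5 whose pattern over these 8 libraries was most like that mean were ARNT (r 0.989), the dimer partner of the hypoxia-inducible factors, BRPF3 (0.979), a scaffold of histone acetyltransferase complexes, SLC26A1 (0.978), a sulfate transporter, PPARA (0.971), a lipid-sensing nuclear receptor, and ZNF772 (0.970), a zinc finger gene. Over the 7 libraries without the one labelled sgEGR1 SCF replicate 3 these correlations were 0.953 to 0.979. These values share libraries, depth and the SCF difference, and are a description.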

How the data were processed

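RNA-seq of 12 HUDEP-2 libraries, 3 per group, was analysed, with every group taken from the labels. Paired-end reads had been aligned by the authors with HISAT 2.1.0 (hg38). StringTie 2.1.1 gave the estimated counts that the authors deposited per gene, 1 column per library and unscaled for depth or length. Annotation release, multi-mapping and use of strand in counting are not given in the sources used here, and the kit named in the labels is not that of the methods. Of the deposited values 0 were not whole, and 0 columns were left unused. The code SG2 in the table was read as sgEGR1, the construct the labels hold besides the scrambled control.

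edgeR 4.0.16 (R 4.3.3) was run with TMM scaling and a quasi-likelihood F test, with 1 coefficient per group and all 12 libraries. filterByExpr kept 15492 of 54628 genes, and a call needed an adjusted p (Benjamini-Hochberg, over all of them) under 0.05. The split by replicate 1 was fitted as a term. Alternatives were DESeq2 1.42.0 (the tool named in the study's methods), RLE size factors, no filter, a replicate block, a term for replicate 1, replicates 2 and 3 only, only the groups compared, and leaving out each library. Residuals of same-numbered libraries correlated between guides at 0.232, 0.103 and 0.119 in the PBS groups (replicates 1, 2 and 3) and at 0.269, 0.102 and 0.126 in the SCF groups. Between SCF and PBS they correlated at 0.272, 0.00766 and 0.108 with sgControl and at 0.230, 0.0749 and 0.0620 with sgEGR1. Libraries with different numbers were not compared, and replicate 1 stands apart in every group. These values therefore do not show whether the numbers pair the libraries. Replicate pairs differed beyond sampling noise. Code was tested on simulated data. Exon lengths, positions and overlaps come from the GENCODE annotation of GRCh38 and promoters from RefSeq.

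The members and lists were chosen with earlier results of these data known. From the lists of 38 and 23 genes, up to 6 called genes per comparison were named by smallest p, or up to 3 with an unadjusted p under 0.05 where none was called. Some genes that this rule names are not reported here.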

Additional observations from a re-analysis of the deposited data

How the results depend on the processing

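Of 64 values (8 members in 8 comparisons), recomputed 1216 times in all, 0 called values changed sign, 1114 values kept direction and side of the threshold, 16 lost a call, 16 gained a call and 70 uncalled values changed sign. RLE size factors changed no count of members called by over 1.5 times. In sgControl cells the count of members called for SCF was 0, and 1 with a term for replicate 1 and without sgEGR1 SCF replicate 3. In sgEGR1 cells it was 1, and 2 with a term for replicate 1, with DESeq2 or with the replicate block, 0 with no filter or only the groups compared, and 0 to 1 when leaving out each library. Averaged over both guides it was 1. It was 4 with a term for replicate 1 or with the replicate block (ANK1, EPB42, SLC4A1 and GYPB). It was 3 with a term for replicate 1 and without sgEGR1 SCF replicate 3, 2 with DESeq2 or in replicates 2 and 3 only, and 1 to 2 when leaving out each library. Calls over all genes rose as well. On average they went from 1399 to 2868 with the term, 2442 with the term and without that library, and 1748 in replicates 2 and 3 only. In sgControl cells the term without that library called 1186 genes against 448. In sgEGR1 cells the term called 1326 against 402. The averaged guide comparison gave 0, and 1 with a term for replicate 1 and without sgEGR1 SCF replicate 3. The replicate 1 split gave 4, and 2 to 4 when leaving out each library. Whether the replicate numbers pair SCF with PBS libraries was not shown. For SCF, the block raised the genes called in all from 448 to 1184 in sgControl cells, from 402 to 1235 in sgEGR1 cells and from 1399 to 2799 on average. DESeq2 called 759, 773 and 1791. The block changed no member's call between guides. The cause of these shifts was not tested. With 3 libraries per group, averaged differences of members had standard errors of 0.03 to 0.08 on the log2 scale.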
